A study of Homo sapiens with 32 samples.

Results

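The genes followed here make cholesterol, sense it, take it up or export it. They are a list of 32 genes, matched to the array by symbol and drawn up with earlier results of these data known, of which 30 had a probe set that the array annotation gives to their symbol alone. All 30 were bright enough to be tested among 14695 genes (of 19775 with a probe set). FDFT1, the squalene synthase gene, had no probe set in the annotation table used, and CYP51A1, a sterol demethylase gene, had only probe sets shared with another symbol, so neither has a value. By role, 7 members are enzymes of the mevalonate pathway, 9 are later squalene and sterol enzymes, 5 belong to the sterol-sensing control of synthesis, 4 to uptake and transport within the cell, and 5 to lipid export and its nuclear receptor.

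The RNA of each sample was hybridised to 1 Affymetrix HG-U133 Plus 2.0 array, on which a gene is read by 1 or more probe sets. There were 8 arrays of A549 and 24 of H1299, both human lung carcinoma lines known to lack functional SMARCA4. SMARCA4 and SMARCA2 are the alternative ATPase motors of the SWI/SNF complexes, which move nucleosomes. Every line was an isogenic stable line, untreated and grown in RPMI with fetal bovine serum, that carried 1 shRNA and 1 cDNA. The shRNA was S2sh7, aimed at the part of SMARCA2 that encodes its ATPase domain, or shLuc, aimed at luciferase as a control. In A549 the cDNA was WT SMARCA4, a bromodomain mutant (BRD), an ATPase dead mutant (ATPdead), or GFP as the control, and each of the 8 groups had 1 array. In H1299 the cDNA was WT, BRD or ATPdead SMARCA2, or GFP, and each of the 8 groups had 3 arrays labelled biological replicates. A549 and H1299 also carry different batch labels, so line and batch cannot be told apart. Whether the replicates are separate cultures, how many clones a line holds, and whether a SMARCA2 cDNA escapes S2sh7 are not given in the labels. The p-values therefore measure only the spread between these arrays, and the number of arrays limits the precision. In such bulk samples fewer cells of a kind and less RNA per cell cannot be told apart.

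Cholesterol is built from acetyl-CoA through mevalonate and squalene. When membranes run short of sterol, SCAP carries the SREBP proteins (encoded by SREBF1 and SREBF2) from the endoplasmic reticulum to the Golgi, where they are cut loose to switch on genes of sterol and fatty acid synthesis. INSIG1 and INSIG2 hold SCAP back when sterol is plentiful. LXR receptors, among them the NR1H3 product, respond to oxidised sterols and switch on export genes such as ABCA1, ABCG1 and APOE, as well as SREBF1 and MYLIP. Serum in the medium supplies lipoprotein cholesterol, which restrains the SREBP proteins.

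The start regions of 4 members are printed because the results turn on INSIG1, DHCR7 and HMGCS1, and because SREBF2 was the only member whose start region held the sterol element searched for. Each runs 5′ to 3′ along its gene over the 250 bases before the annotated start, from RefSeq on GRCh38.p14. They lie at chr7:155297628-155297877 (plus strand), chr11:71448394-71448643 (minus strand), chr5:43313413-43313662 (minus strand) and chr22:41832855-41833104 (plus strand). Capitals mark CCAAT, the box read by the factor NF-Y, on either strand (ATTGG where it lies on the other strand), and in SREBF2 also a match to TCACNCCAC, a form of the sterol regulatory element with 1 base left free.
INSIG1: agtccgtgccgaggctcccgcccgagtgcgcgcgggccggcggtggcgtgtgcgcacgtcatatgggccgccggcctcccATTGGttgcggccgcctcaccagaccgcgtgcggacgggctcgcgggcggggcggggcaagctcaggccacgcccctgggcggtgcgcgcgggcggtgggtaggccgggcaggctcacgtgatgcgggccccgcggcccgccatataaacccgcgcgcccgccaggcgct
DHCR7: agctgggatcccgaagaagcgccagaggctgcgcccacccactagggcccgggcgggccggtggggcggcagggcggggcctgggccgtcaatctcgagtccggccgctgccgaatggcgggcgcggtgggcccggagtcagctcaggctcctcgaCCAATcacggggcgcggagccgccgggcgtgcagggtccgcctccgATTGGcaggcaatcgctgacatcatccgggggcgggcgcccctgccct
HMGCS1: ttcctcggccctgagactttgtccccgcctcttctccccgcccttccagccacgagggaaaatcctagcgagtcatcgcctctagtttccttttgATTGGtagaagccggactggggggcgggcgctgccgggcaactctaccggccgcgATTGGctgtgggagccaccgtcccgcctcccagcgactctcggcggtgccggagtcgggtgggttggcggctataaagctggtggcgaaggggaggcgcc
SREBF2: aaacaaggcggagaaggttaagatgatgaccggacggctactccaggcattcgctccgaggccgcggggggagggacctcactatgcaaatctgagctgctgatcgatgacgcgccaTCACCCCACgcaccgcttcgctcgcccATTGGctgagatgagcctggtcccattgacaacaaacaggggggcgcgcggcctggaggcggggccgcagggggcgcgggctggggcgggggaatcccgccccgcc

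Of the 32 genes, 28 had such a region in the RefSeq table, 39 regions in all, searched over 300 bases (250 before and 50 after the start) and on both strands. CCAAT was present in 23 of the 39 regions (59%), from 20 of the 28 genes, against 34.6% of all 35116 regions in the table. The printed DHCR7 and HMGCS1 regions, each 1 of 2 for the gene, held 2 copies, and those of INSIG1 and SREBF2 held 1. Where a gene had 2 regions, the one with the most CCAAT copies was chosen for printing. The count of 2 is thus the highest for DHCR7 and HMGCS1 by that choice. TCACNCCAC occurred in 1 member region, that of SREBF2, with its first base 133 bases before the start, against 1.13% of all regions. It overlapped no CCAAT box. These matches describe letters in a window and are not evidence of binding.

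SMARCA2 RNA, the target of S2sh7, was lower in both lines. In A549 it measured log2 5.47, 5.63, 5.63 and 5.13 with S2sh7 (with WT, BRD, ATPdead and GFP), against 8.57, 8.63, 8.42 and 8.31 with shLuc. In H1299 with GFP it measured 5.24, 5.19 and 4.86 with S2sh7, against 6.36, 6.49 and 6.34 with shLuc. With WT, BRD, ATPdead and GFP in H1299 the same probe set averaged 5.28, 5.02, 5.25 and 5.10 with S2sh7. With shLuc it averaged 6.29, 6.46, 6.39 and 6.40 in that order. The SMARCA2 cDNAs were thus not visible above GFP in this probe set, and whether they were expressed was not tested. All S2sh7 arrays lay near the floor of log2 5 used for testing. In A549 the SMARCA4 probe set with the highest mean measured 7.88, 7.91 and 7.24 with S2sh7 and 6.64, 6.92 and 6.85 with shLuc for WT, BRD and ATPdead, and 4.97 and 4.56 with GFP. The 3 SMARCA4 cDNAs were thus visible in that probe set, ATPdead least so under S2sh7. The part of that ATPdead gap in what follows was not tested. The other SMARCA4 probe sets held the cDNA lines far less apart from GFP, or not at all. The next brightest measured 6.69, 6.55 and 6.46 with S2sh7 for WT, BRD and ATPdead, against 6.36 with GFP. With shLuc it measured 6.20, 6.53 and 6.38, against 6.18 with GFP. Of the carcinoma markers KRT8 and KRT18 measured 9.92 to 13.93 in both lines, EPCAM was at 6.48 to 8.59 in A549 and 2.64 to 3.11 in H1299, and KRT7 at 12.43 to 12.63 in A549 and 5.39 to 7.07 in H1299. The 4 alveolar markers stayed between 5.37 and 7.12. The 6 measured leukocyte and endothelial markers ran from 2.84 to 6.98, the highest being CD14 in A549, and their defining genes PTPRC and CDH5 stayed under log2 4 in every array. The 3' minus 5' log2 difference of the ACTB controls, a sign of RNA quality, averaged 0.206 with S2sh7 and 0.231 with shLuc in A549 where the cDNA was WT or BRD, and 0.176 with S2sh7 and 0.186 with shLuc where it was ATPdead or GFP. In H1299 it averaged 0.237 with S2sh7 and 0.247 with shLuc. The same difference for GAPDH averaged 0.127 with either shRNA in A549 with WT or BRD, 0.166 with S2sh7 and 0.142 with shLuc with ATPdead or GFP, and 0.00706 with S2sh7 and -0.00779 with shLuc in H1299. The part of RNA quality in the results was not tested. Levels are compared only within a line, since array medians were 40.1 to 41.2 intensity units in A549 and 26.4 to 27.3 in H1299.

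In H1299 cells carrying GFP, the members furthest from 0 after knockdown of SMARCA2 were APOE and INSIG1, both higher. With GFP, APOE, the lipid-carrying apolipoprotein, rose 2.31-fold with S2sh7 (log2 difference 1.21, SE 0.03), and INSIG1, the brake on the SREBP proteins, rose 1.62-fold (0.70, SE 0.05). The sterol reductase gene TM7SF2 (0.41), the sterol carrier STARD4 (0.35) and the apolipoprotein gene APOC1 (0.28) rose as well. HSD17B7, ABCA1, MYLIP, NPC1, HMGCS1, DHCR7 and SREBF1 fell by 0.12 to 0.26. In limma, with adjustment over all 14695 genes and a call at adjusted p under 0.05, 13 of the 30 members were called with GFP, 6 higher and 7 lower. Of all genes 29.7% were called (13.6% higher, 16.1% lower). The median log2 difference was 0.0179 over the members and 0.0131 over all genes. The S2sh7 and shLuc arrays did not overlap for 16 of 30 members, against 42.1% of all genes.

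**Figure D1:**
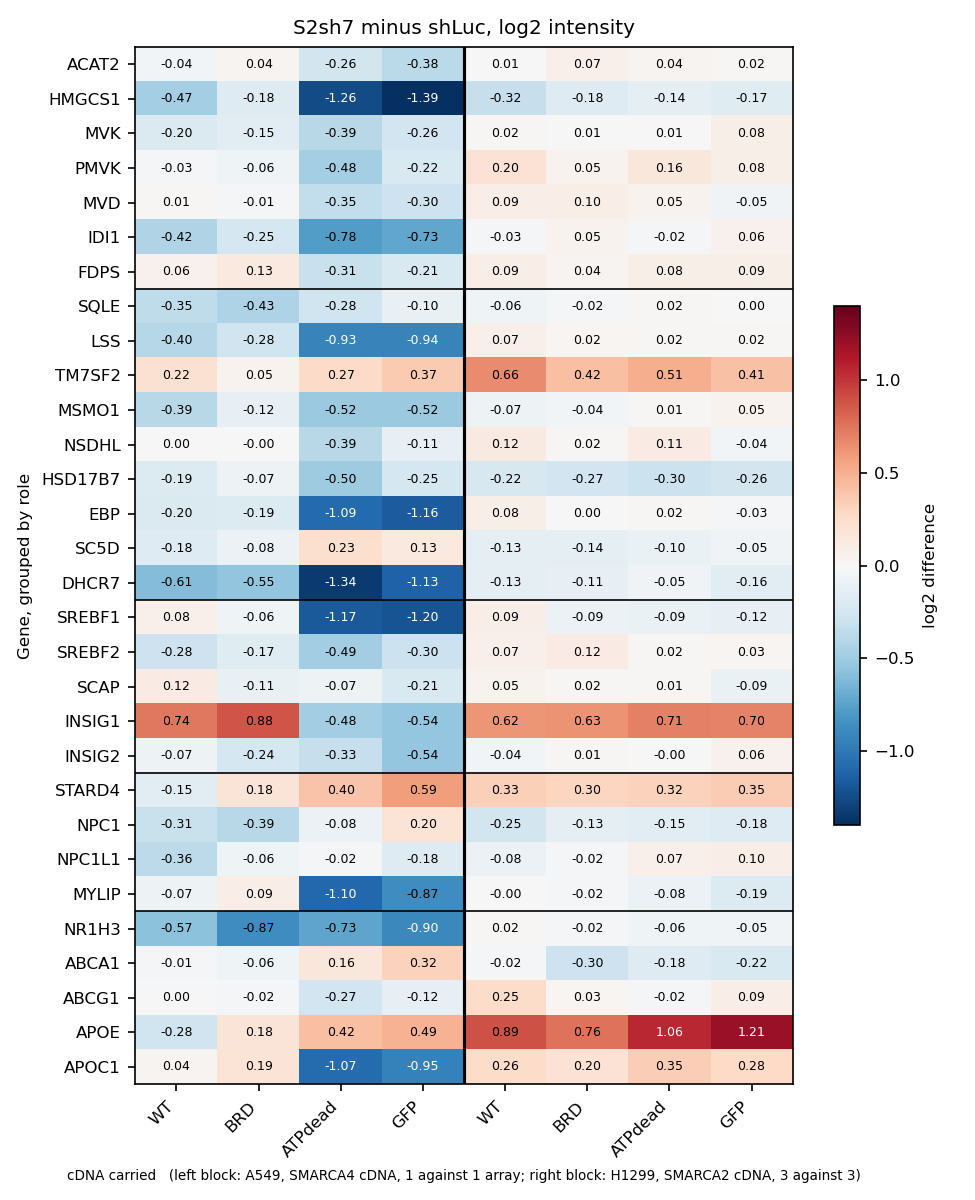
Log2 difference of S2sh7 minus shLuc for the 30 tested genes (rows, grouped by role) with each cDNA (columns; left of the thick line A549, 1 array against 1; right of it H1299, means of 3 against 3 arrays); red is higher with S2sh7 and blue lower. In A549 the columns of ATPdead and GFP are blue for most enzymes, down to -1.39 for HMGCS1, and in H1299 the rows of APOE, INSIG1, TM7SF2, STARD4 and APOC1 are red with every cDNA.

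Among the mevalonate enzymes 1 of 7 rose and 1 fell with GFP (28.6% called, near the 29.7% of all genes). HMGCS1, which condenses acetoacetyl-CoA to HMG-CoA at the head of the pathway, measured log2 8.19, 8.20 and 8.14 with S2sh7, against 8.37, 8.34 and 8.34 with shLuc. The arrays did not overlap (log2 difference -0.17, SE 0.04, adjusted p = 0.003). A second HMGCS1 probe set gave 0.006, and with the mean of both the difference was -0.085 and no longer called. FDPS, which makes farnesyl diphosphate, measured 10.71, 10.73 and 10.74 with S2sh7, against 10.66, 10.61 and 10.64 with shLuc. That gap was small but free of overlap (0.09, SE 0.03, adjusted p = 0.013); it lost its call when arrays were centred on their medians (0.070) and without shLuc GFP replicate 2 (0.073).

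Of the 9 squalene and sterol enzymes 1 rose and 2 fell with GFP (33.3% called, near the 29.7% of all genes). TM7SF2, a sterol C14 reductase, measured 7.36, 7.41 and 7.44 with S2sh7, against 7.04, 6.95 and 6.99 with shLuc (0.41, SE 0.05, adjusted p = 4e-06). HSD17B7, a ketosteroid reductase of the pathway, measured 7.84, 7.92 and 8.02 with S2sh7, against 8.20, 8.16 and 8.20 with shLuc (-0.26, SE 0.05, adjusted p = 3e-04). DHCR7, which reduces 7-dehydrocholesterol to cholesterol, measured 8.23, 8.15 and 8.07 with S2sh7, against 8.27, 8.34 and 8.31 with shLuc (-0.16, SE 0.03, adjusted p = 0.0013). The groups did not overlap for any of these genes, though the highest DHCR7 array with S2sh7 came close to the lowest with shLuc. Both tested DHCR7 probe sets fell.

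In the control group INSIG1 rose and SREBF1 fell. INSIG1 measured 8.98, 9.05 and 8.91 with S2sh7, against 8.27, 8.25 and 8.34 with shLuc, a gap several times the spread within either group (adjusted p = 2.6e-09). Its 3 probe sets were all higher, by 0.073 to 0.70, and 2 of them were called. SREBF1 measured 8.52, 8.55 and 8.53 with S2sh7, against 8.65, 8.64 and 8.66 with shLuc (-0.12, SE 0.03, adjusted p = 0.0052). SREBF2, SCAP and INSIG2 were not called. SREBF2 ranged over 12 arrays each from 7.02 to 7.36 (median 7.17) with S2sh7 and from 7.05 to 7.20 (median 7.10) with shLuc, and INSIG2 from 7.75 to 7.91 (median 7.86) with S2sh7 and from 7.74 to 7.94 (median 7.84) with shLuc.

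Of the uptake and transport genes STARD4, which carries cholesterol through the cytosol, measured 8.83, 8.90 and 8.83 with S2sh7, against 8.51, 8.50 and 8.49 with shLuc (0.35, SE 0.05, adjusted p = 1.4e-05). NPC1, which lets cholesterol out of lysosomes, measured 8.82, 8.84 and 8.83 with S2sh7, against 9.06, 8.99 and 9.00 with shLuc (-0.18, SE 0.03, adjusted p = 0.00013). MYLIP, the ligase that marks lipoprotein receptors for degradation, measured 7.56, 7.61 and 7.60 with S2sh7, against 7.70, 7.73 and 7.89 with shLuc (-0.19, SE 0.04, adjusted p = 0.0014). STARD4 was thus higher and the other 2 lower, all without overlap. The intestinal sterol transporter NPC1L1 was dim, at 5.02 to 5.38 in all 24 H1299 arrays, and not called.

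In the export group APOE measured 9.15, 9.16 and 9.14 with S2sh7, against 7.95, 7.93 and 7.95 with shLuc (adjusted p = 2.2e-15). The SD was 0.01 in either group (n = 3 each), and its 3 probe sets all rose, by 0.64 to 1.21. APOC1, whose gene neighbours APOE, measured 7.96, 8.04 and 7.96 with S2sh7, against 7.69, 7.72 and 7.72 with shLuc (adjusted p = 1.1e-05). ABCA1, the pump that loads cholesterol onto apolipoproteins, measured 6.74, 6.82 and 6.68 with S2sh7, against 6.98, 6.91 and 6.99 with shLuc (-0.22, SE 0.06, adjusted p = 0.0058). With the mean of its probe sets the ABCA1 difference was -0.057 and not called. ABCA1 and APOE, both known LXR targets, thus moved apart with the probe sets used, and LXR activity was not tested. NR1H3 itself ranged from 5.83 to 6.15 (median 6.01) over 12 S2sh7 arrays and from 5.80 to 6.15 (median 6.06) over 12 shLuc arrays, and was not called. The pump gene ABCG1 was never above log2 5 in H1299 (3.42 to 4.05), and was tested because of its A549 arrays.

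**Figure D2:**
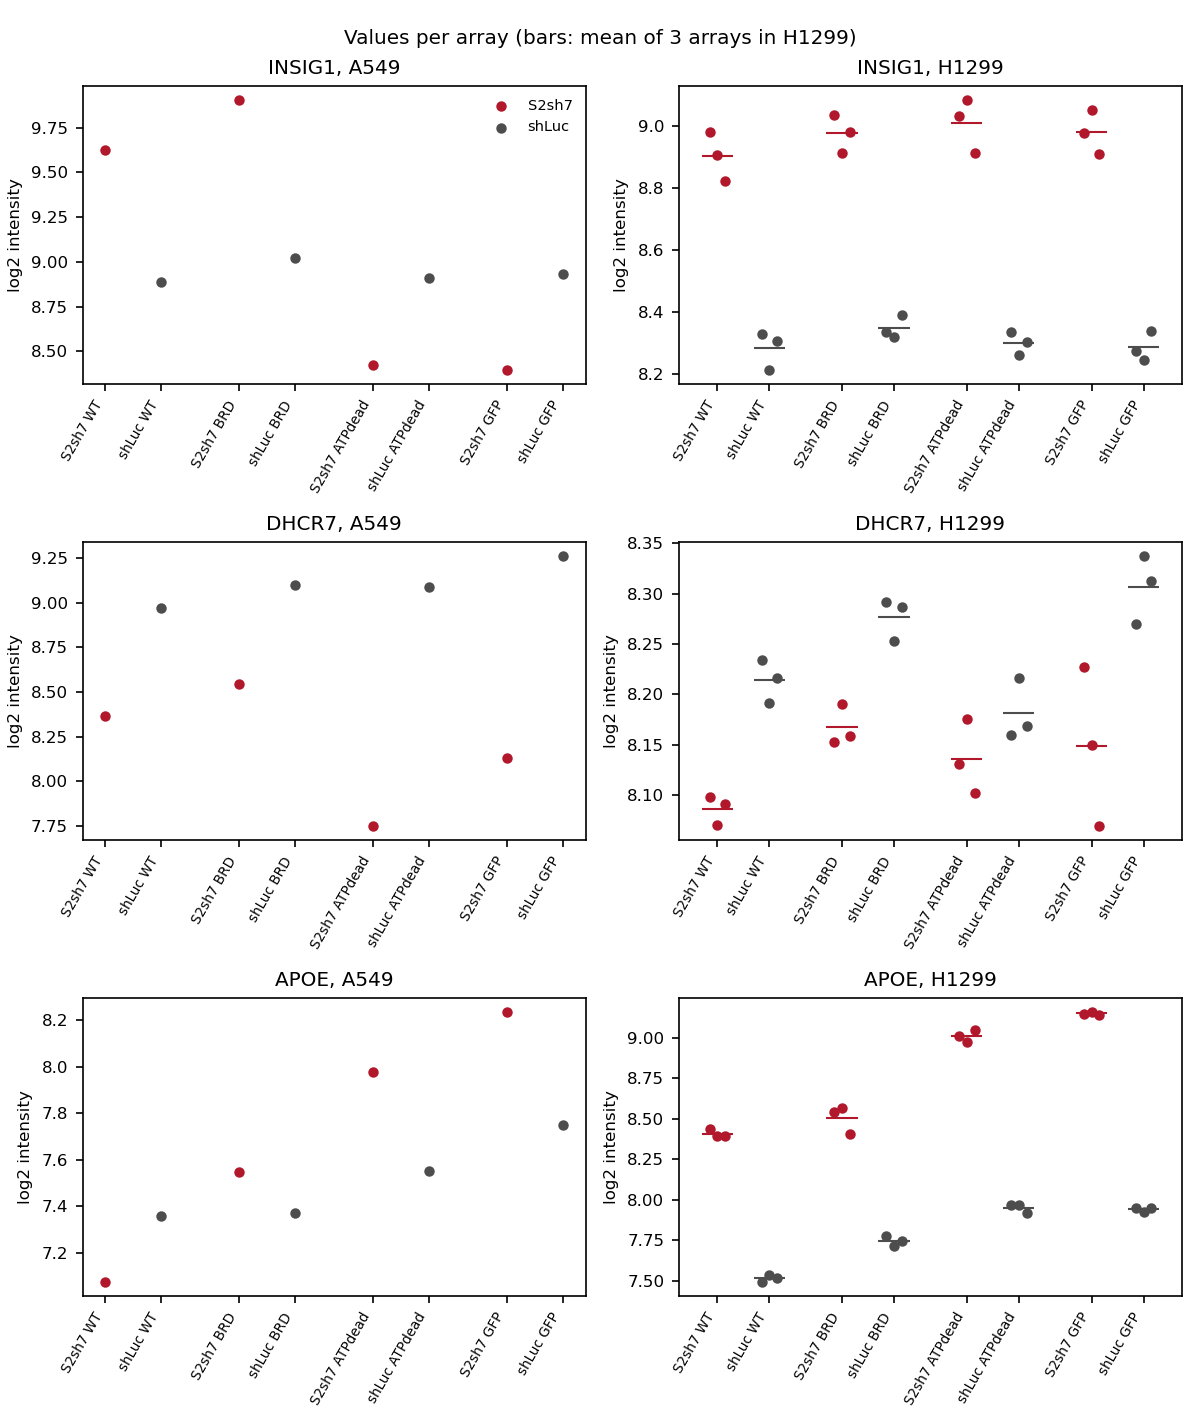
Log2 intensity of INSIG1, DHCR7 and APOE in every array (points; red S2sh7, grey shLuc; A549 left with 1 array per group, H1299 right with bars at the mean of 3 arrays). With S2sh7 in A549 INSIG1 lies at 9.62 and 9.91 with WT and BRD SMARCA4 and at 8.42 and 8.39 with ATPdead and GFP, whereas in H1299 INSIG1 and APOE lie higher with S2sh7 for each cDNA.

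Of the H1299 members, 8 were called in 1 direction whichever cDNA the cells carried. With WT 13 of 30 members were called (8 higher, 5 lower; 26.5% of all genes), with BRD 12 (5 and 7; 23.7%) and with ATPdead 13 (7 and 6; 28.4%). APOE, APOC1, INSIG1, STARD4 and TM7SF2 were called higher in all 4 knockdown comparisons, which is 5 of 30 members against 6.06% of all genes. HMGCS1, HSD17B7 and NPC1 were called lower in all 4, 3 of 30 against 6.81%. With the mean of all probe sets NPC1 lost its call in all 4 (-0.10 with WT, -0.021 with BRD, -0.070 with ATPdead and -0.084 with GFP) and HMGCS1 with ATPdead and GFP (-0.11 and -0.085). HMGCS1 with ATPdead also lost it without shLuc ATPdead replicate 1 or 3 or S2sh7 ATPdead replicate 1 (-0.12 in each). These comparisons share no arrays. INSIG1 lay at 0.62 with WT, 0.63 with BRD, 0.71 with ATPdead and 0.70 with GFP. HMGCS1 gave -0.32, -0.18, -0.14 and -0.17 with the same cDNAs, and TM7SF2 0.66, 0.42, 0.51 and 0.41. The marker genes show this by array. INSIG1 measured 8.98, 8.91 and 8.83 with S2sh7 and WT, against 8.33, 8.21 and 8.31 with shLuc and WT. It measured 9.04, 8.91 and 8.98 with S2sh7 and BRD, against 8.34, 8.32 and 8.39 with shLuc and BRD, and 9.03, 9.09 and 8.91 with S2sh7 and ATPdead, against 8.34, 8.26 and 8.30 with shLuc and ATPdead. No INSIG1 array with S2sh7 came near one with shLuc. APOE measured 8.44, 8.39 and 8.39 with S2sh7 and WT, against 7.49, 7.54 and 7.52 with shLuc and WT. It measured 8.54, 8.57 and 8.41 with S2sh7 and BRD, against 7.78, 7.72 and 7.74 with shLuc and BRD, and 9.01, 8.97 and 9.05 with S2sh7 and ATPdead, against 7.97, 7.97 and 7.92 with shLuc and ATPdead. APOE was thus apart in every comparison as well. DHCR7 measured 8.10, 8.07 and 8.09 with S2sh7 and WT, against 8.23, 8.19 and 8.22 with shLuc and WT, and 8.15, 8.19 and 8.16 with S2sh7 and BRD, against 8.29, 8.25 and 8.29 with shLuc and BRD. With ATPdead its groups overlapped, at 8.13, 8.18 and 8.10 with S2sh7, against 8.16, 8.22 and 8.17 with shLuc, and it was not called there. Another 15 members were called in none of the 4 comparisons, as were 53.7% of all genes. PMVK, phosphomevalonate kinase, rose with WT (0.20) and ATPdead (0.16). SC5D, the desaturase before DHCR7, fell with WT (-0.13), BRD (-0.14) and ATPdead (-0.10). SREBF1 was called in both directions, higher with WT (0.09) and lower with BRD (-0.09), ATPdead (-0.09) and GFP. With the mean of its probe sets the SREBF1 differences with WT and BRD turned sign (-0.0017 and 0.022) and were not called.

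For the other enzymes the H1299 arrays of all 4 cDNAs are pooled here, as the lowest, median and highest log2 value over 12 arrays each. These pooled ranges overlapped. With single cDNAs, though, the 3 arrays did not overlap for PMVK and SC5D in 3 of 4 comparisons. The same held for MVD and NSDHL in 2, and for LSS, EBP and SQLE in 1. Of all genes 40% did not overlap with WT, 36.9% with BRD, 41% with ATPdead and 42.1% with GFP. With S2sh7 and then with shLuc, LSS, lanosterol synthase, ran over 8.83, 8.92 and 8.99, against 8.76, 8.91 and 8.95. IDI1, isopentenyl diphosphate isomerase, ran over 9.61, 9.74 and 9.93, against 9.64, 9.73 and 9.84. EBP, a sterol isomerase, ran over 9.10, 9.15 and 9.25, against 9.08, 9.12 and 9.24. None of these was called in an H1299 knockdown comparison. With the mean of its probe sets, however, IDI1 was called higher with WT (0.090) and with ATPdead (0.10). MSMO1, a C4 methyl oxidase, ran over 9.04, 9.18 and 9.28, against 9.16, 9.18 and 9.27, and SQLE, squalene epoxidase, over 10.22, 10.29 and 10.36, against 10.26, 10.29 and 10.35. ACAT2, the acetoacetyl-CoA thiolase gene, ran over 9.64, 9.73 and 9.83, against 9.64, 9.71 and 9.75. MVK, mevalonate kinase, ran over 7.57, 7.66 and 7.76, against 7.54, 7.62 and 7.80, and MVD, the decarboxylase, over 6.23, 6.45 and 6.55, against 6.32, 6.38 and 6.58. These were not called either. PMVK ran over 7.74, 7.86 and 7.94, against 7.60, 7.71 and 7.84. SC5D ran over 8.56, 8.63 and 8.77, against 8.69, 8.75 and 8.82, and NSDHL, a sterol dehydrogenase, over 7.41, 7.48 and 7.61, against 7.34, 7.43 and 7.58. The shLuc median was the lower one for PMVK and NSDHL and the higher one for SC5D.

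The difference between 2 knockdown effects tests whether the response in a SMARCA2 cDNA line differed from that with GFP. The cDNAs themselves were not visible above GFP in the SMARCA2 probe set used. For APOE the rise was smaller with WT than with GFP by 0.31 (SE 0.05, adjusted p = 0.0011) and smaller with BRD than with GFP by 0.45 (SE 0.05, adjusted p = 7.6e-05). APOE averaged 8.41 (SD 0.02) with WT, 8.50 (SD 0.09) with BRD, 9.01 (SD 0.04) with ATPdead and 9.15 (SD 0.01) with GFP under S2sh7. Under shLuc it averaged 7.52 (SD 0.02), 7.75 (SD 0.03), 7.95 (SD 0.03) and 7.94 (SD 0.01) in the same order (n = 3 each). WT and BRD cells thus read lower than ATPdead and GFP cells under either shRNA. SREBF1 was the other member called, with an effect 0.20 higher with WT than with GFP (SE 0.04, adjusted p = 0.013), and it was not called with the mean of its probe sets (0.10). These were 2 of 30 members with WT, against 2.28% of all genes (1.82% higher, 0.456% lower), and 1 of 30 with BRD, against 0.558% (0.388% higher, 0.17% lower). With ATPdead no member was called by limma, against 0.0612% of all genes (0.0476% higher, 0.0136% lower), and 3 of 30 had an unadjusted p under 0.05.

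Under S2sh7, ATPdead was higher than WT in 3 of 30 members and lower in none, against 3.02% of all genes (1.61% higher, 1.41% lower): APOE by 0.60 (SE 0.03, adjusted p = 3e-09), APOC1 by 0.22 (adjusted p = 0.0016) and IDI1 by 0.14 (adjusted p = 0.031). With the mean of all probe sets the count was 1. BRD did not differ from WT by this test in any member (0.0612% of all genes called; 6 of 30 members with an unadjusted p under 0.05). Under shLuc, WT was lower than GFP in 7 of 30 members, against 2.74% of all genes (0.925% higher, 1.82% lower). The log2 differences were -0.43 for APOE, -0.34 for TM7SF2, -0.27 for APOC1, -0.20 for SREBF1, -0.16 for FDPS, -0.14 for IDI1 and -0.12 for LSS. The IDI1 and LSS calls held in 4 of 13 alternatives each, and without any 1 array 5 members were called. BRD was lower than GFP in APOC1 (-0.21) and APOE (-0.20), 2 of 30 against 1.37% of all genes (0.864% higher, 0.504% lower); trend and robust settings called 5 members, and without shLuc BRD replicate 3 the count was 1. ATPdead was called in no member by limma (0.122% of all genes, 0.034% higher and 0.0885% lower; 6 of 30 with an unadjusted p under 0.05). These 3 shLuc comparisons share the GFP arrays. APOC1 averaged 7.44 with WT, 7.50 with BRD, 7.57 with ATPdead and 7.71 with GFP there, GFP being the highest.

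**Figure D3:**
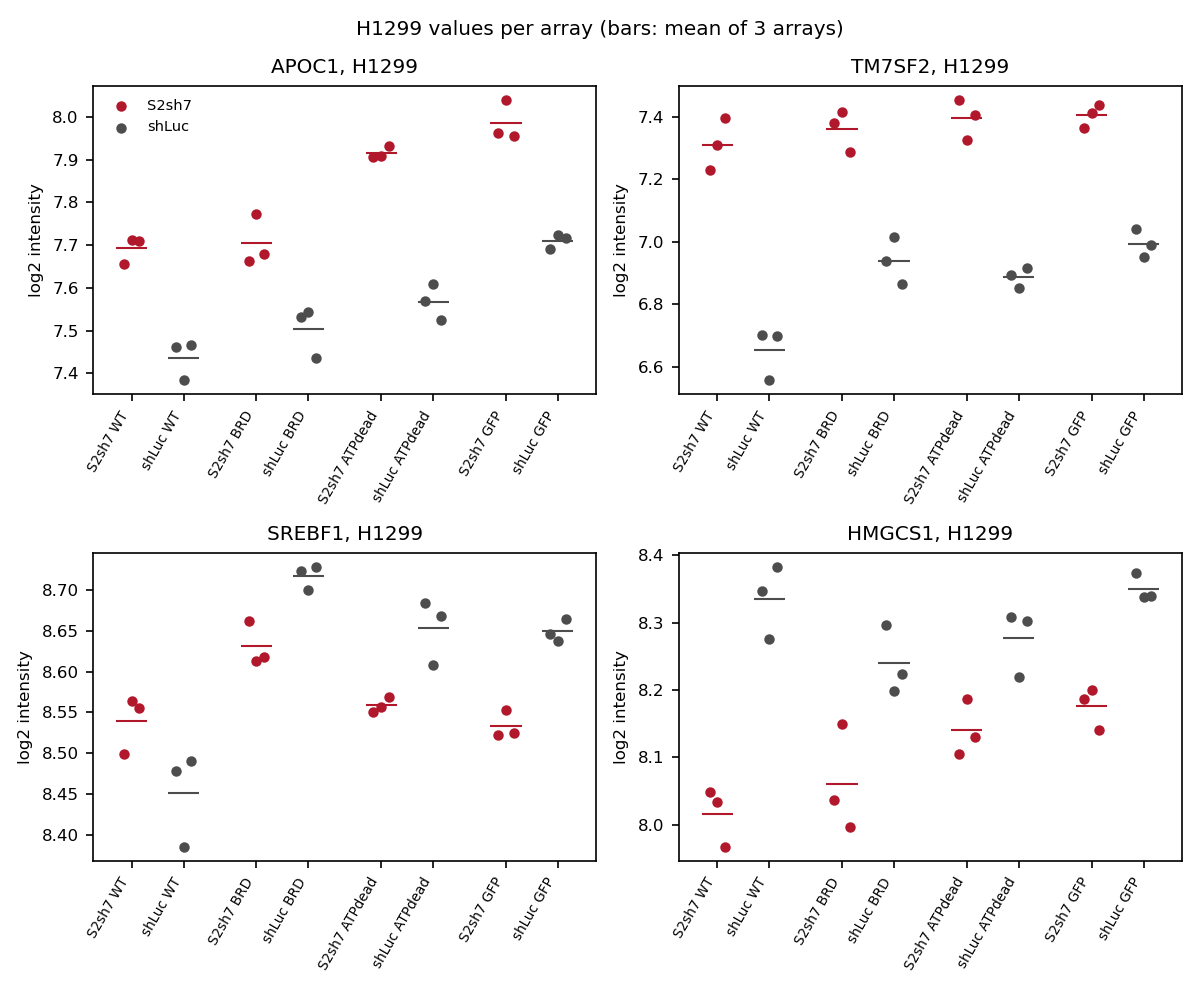
Log2 intensity of APOC1, TM7SF2, SREBF1 and HMGCS1 in every H1299 array (points; red S2sh7, grey shLuc; bars are means of 3 arrays). APOC1 with S2sh7 lies at 7.66 to 7.77 with WT and BRD and at 7.91 to 8.04 with ATPdead and GFP, and SREBF1 with shLuc is lowest with WT (8.39 to 8.49).

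In A549 the response of the sterol genes to SMARCA2 knockdown differed with the SMARCA4 cDNA. With SMARCA4 whose ATPase is intact (WT or BRD), INSIG1 rose with S2sh7 and 4 of 16 enzymes fell, against 9.28% of all genes lower. With ATPdead or GFP, 14 of 16 enzymes fell with S2sh7, HMGCS1 to 40% and DHCR7 to 42.4% of their shLuc level, and INSIG1 fell as well. The classes join 2 cDNAs each, which stand in for replicates and are not replicates, so the p-values of this fit treat differences between WT and BRD, or between ATPdead and GFP, as error. With WT or BRD 7 of 30 members were called, 1 higher and 6 lower, against 21.3% of all genes (12.1% higher and 9.28% lower). With ATPdead or GFP 27 of 30 members were called, 5 higher and 22 lower, against 49.8% of all genes (27% higher and 22.9% lower). All 16 measured enzymes were among the 27, 14 of them lower. The median log2 difference of the enzymes was -0.153 with WT or BRD (0.0128 over all genes) and -0.336 with ATPdead or GFP (0.00404 over all genes). Without 1 array at a time the counts were 3 to 8 and 19 to 24; the count of 7 dropped to 3 without the shLuc array with WT or with BRD.

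Among mevalonate enzymes HMGCS1 changed most. With S2sh7 it measured 8.43 with WT, 8.72 with BRD, 7.78 with ATPdead and 7.50 with GFP, against 8.90, 8.90, 9.04 and 8.89 with shLuc in the same order, in which all values of this paragraph and the next 3 are given. IDI1 measured 9.93, 10.11, 9.65 and 9.75 with S2sh7, against 10.35, 10.36, 10.43 and 10.48 with shLuc. Every S2sh7 array of both genes was below every shLuc array, those with ATPdead and GFP furthest. With ATPdead or GFP the differences were -1.32 (SE 0.12) and -0.76 (SE 0.07), and with WT or BRD -0.33 (SE 0.12, not called) and -0.34 (SE 0.07). FDPS measured 10.60, 10.66, 10.26 and 10.40 with S2sh7, against 10.54, 10.53, 10.57 and 10.61 with shLuc. ACAT2 measured 8.89, 8.96, 8.68 and 8.60 with S2sh7, against 8.93, 8.92, 8.95 and 8.98 with shLuc. In both, only the ATPdead and GFP arrays with S2sh7 stood below the rest. MVK measured 8.31, 8.38, 8.11 and 8.13 with S2sh7, against 8.52, 8.53, 8.49 and 8.39 with shLuc, and PMVK 8.86, 8.80, 8.42 and 8.63, against 8.89, 8.86, 8.90 and 8.85. MVD measured 6.32, 6.39, 6.28 and 6.36 with S2sh7, against 6.30, 6.41, 6.63 and 6.65 with shLuc. MVD differed from the others in that its S2sh7 arrays were alike and its shLuc arrays with ATPdead and GFP were the high ones.

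Of the 9 later enzymes 6 had both S2sh7 minus shLuc differences with ATPdead and GFP below both with WT and BRD. That order was found in 30.6% of all genes. SQLE, SC5D and TM7SF2 did not. DHCR7 measured 8.37, 8.55, 7.75 and 8.13 with S2sh7, against 8.97, 9.10, 9.09 and 9.27 with shLuc. EBP measured 9.55, 9.59, 8.66 and 8.72 with S2sh7, against 9.75, 9.78, 9.75 and 9.88 with shLuc. LSS measured 8.45, 8.61, 7.95 and 7.93 with S2sh7, against 8.86, 8.89, 8.88 and 8.87 with shLuc. All 3 were lower in every pair and lowest with ATPdead and GFP, where the class difference was -1.24 (SE 0.13), -1.12 (SE 0.07) and -0.93 (SE 0.07). The DHCR7 (2 of 2) and LSS (3 of 3) probe sets all fell there, and 2 of 4 EBP probe sets were called, all 4 being lower. With WT or BRD 3 of 4 EBP probe sets were lower, and 1 was called higher (0.28). MSMO1 measured 9.73, 9.94, 9.71 and 9.74 with S2sh7, against 10.12, 10.06, 10.22 and 10.27 with shLuc. HSD17B7 measured 8.94, 9.06, 8.72 and 8.81 with S2sh7, against 9.13, 9.13, 9.22 and 9.06 with shLuc. NSDHL measured 8.57, 8.55, 8.39 and 8.57 with S2sh7, against 8.57, 8.56, 8.77 and 8.69 with shLuc. For NSDHL the spread over the 4 cDNAs was 0.19 with S2sh7 and 0.22 with shLuc, where ATPdead and GFP were the high ones. MSMO1, HSD17B7 and NSDHL fell with ATPdead or GFP by 0.25 to 0.52 on the log2 scale. For none of them was the difference between the effects in the classes called. SQLE measured 9.99, 9.99, 10.26 and 10.28 with S2sh7, against 10.34, 10.42, 10.54 and 10.38 with shLuc. SQLE ran the other way round, with the deeper falls under WT and BRD (-0.39, SE 0.07) and -0.19 with ATPdead or GFP; in 11 of 15 alternatives the difference with ATPdead or GFP was not called. SC5D measured 8.44, 8.52, 8.84 and 8.81 with S2sh7, against 8.61, 8.60, 8.61 and 8.68 with shLuc, so that only its ATPdead and GFP pairs were higher (0.18, SE 0.06), a call lost in 10 of 15 alternatives. TM7SF2 measured 7.40, 7.34, 7.41 and 7.68 with S2sh7, against 7.19, 7.28, 7.15 and 7.31 with shLuc, higher in all 4 pairs as it was in H1299.

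**Figure D4:**
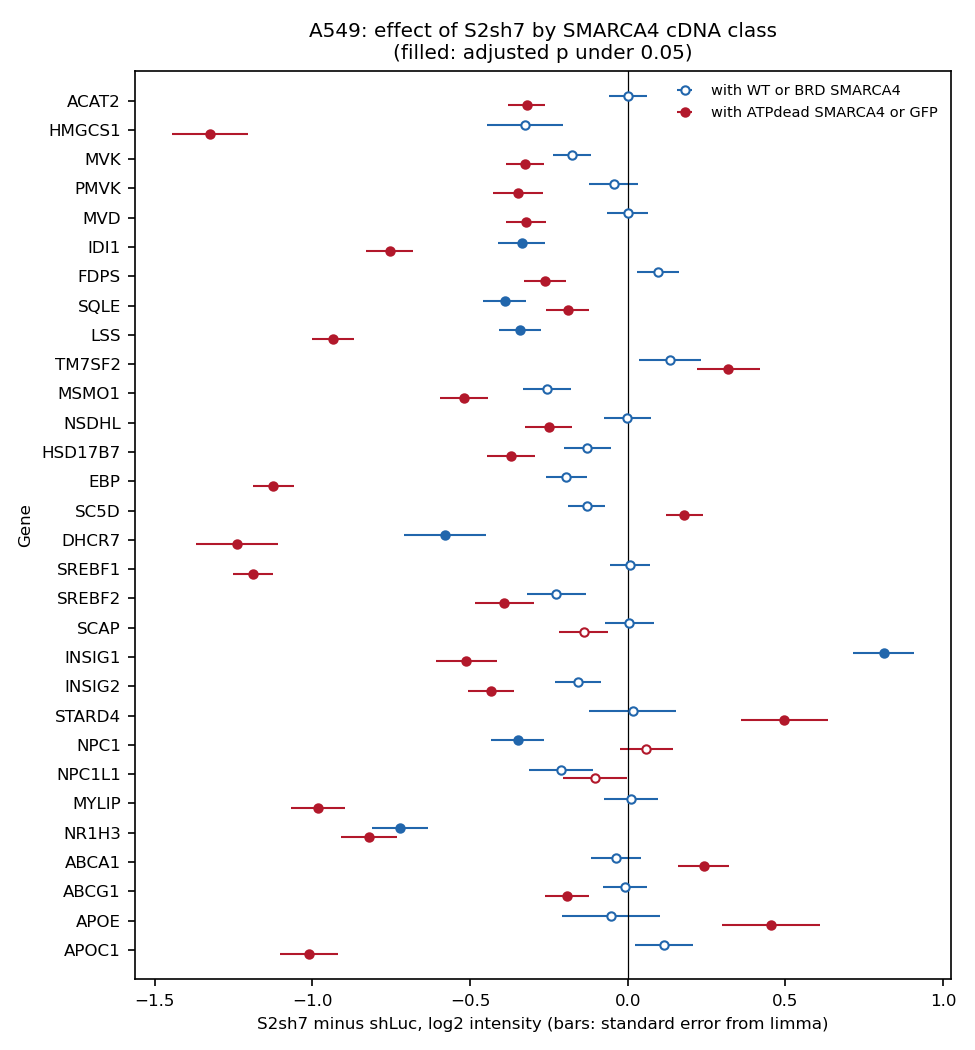
S2sh7 minus shLuc in A549 for the 30 tested genes, fitted for the lines with WT or BRD SMARCA4 (blue, 2 arrays against 2) and for those with ATPdead SMARCA4 or GFP (red, 2 against 2); points are log2 differences, bars the limma standard error, filled points adjusted p under 0.05. The red points of HMGCS1, DHCR7, SREBF1, EBP and APOC1 lie at or below -1.01, and INSIG1 is at 0.81 in blue and -0.51 in red.

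Among the control genes INSIG1 and SREBF1 split by class. INSIG1 measured 9.62, 9.91, 8.42 and 8.39 with S2sh7, against 8.89, 9.02, 8.91 and 8.93 with shLuc. It rose with WT or BRD (0.81, SE 0.10, adjusted p = 0.0014) and fell with ATPdead or GFP (-0.51, SE 0.10, adjusted p = 0.0026). With WT or BRD its 3 probe sets rose by 0.030 to 0.81, 2 of them called. With ATPdead or GFP all 3 fell, by -0.92 to -0.51. SREBF1 measured 9.43, 9.38, 8.24 and 8.31 with S2sh7, against 9.35, 9.44, 9.42 and 9.51 with shLuc. Its S2sh7 arrays with ATPdead and GFP stood apart from the other 6, which lay between 9.35 and 9.51. SREBF2 measured 7.08, 7.26, 6.89 and 7.13 with S2sh7, against 7.37, 7.43, 7.38 and 7.43 with shLuc, and INSIG2 7.83, 7.73, 7.55 and 7.40 with S2sh7, against 7.90, 7.97, 7.88 and 7.94 with shLuc. Both were below shLuc in every pair, and both fell with ATPdead or GFP (-0.39 and -0.43). SCAP stayed between 8.20 and 8.41 in the 8 arrays and was not called in any A549 comparison.

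Among uptake, transport and export genes APOC1 and MYLIP followed SREBF1. APOC1 measured 8.96, 9.21, 7.85 and 7.86 with S2sh7, against 8.92, 9.02, 8.93 and 8.81 with shLuc. MYLIP measured 7.77, 7.94, 6.56 and 6.76 with S2sh7, against 7.84, 7.85, 7.66 and 7.63 with shLuc. In both the S2sh7 arrays with ATPdead and GFP were far below all others (-1.01 and -0.98), and all 5 tested MYLIP probe sets fell. NR1H3 measured 7.58, 7.33, 7.47 and 7.39 with S2sh7, against 8.15, 8.20, 8.20 and 8.29 with shLuc, lower with all 4 cDNAs; its class difference was 0.10 (SE 0.12, adjusted p = 0.64). APOE measured 7.07, 7.55, 7.98 and 8.24 with S2sh7, against 7.36, 7.37, 7.55 and 7.75 with shLuc. It was higher with ATPdead or GFP (0.46, SE 0.15, adjusted p = 0.04), while its neighbour APOC1 was lower, but the call was lost in 8 of 15 alternatives and 1 of its 3 probe sets was called. STARD4 measured 7.21, 7.57, 7.75 and 8.07 with S2sh7, against 7.36, 7.39, 7.35 and 7.48 with shLuc, and ABCA1 7.37, 7.38, 7.33 and 7.56, against 7.38, 7.44, 7.17 and 7.23. STARD4 rose with ATPdead or GFP (0.50, SE 0.14); the ABCA1 call (0.24, SE 0.08) was lost in 9 of 15 alternatives. NPC1 measured 8.74, 8.62, 9.04 and 9.10 with S2sh7, against 9.05, 9.01, 9.12 and 8.90 with shLuc, and was called lower with WT or BRD (-0.35, SE 0.08) and not with ATPdead or GFP (0.06, SE 0.08). Of the dim genes, ABCG1 stayed between 5.18 and 5.48 and NPC1L1 between 5.57 and 5.96; the ABCG1 call with ATPdead or GFP (-0.19) held in 1 of 13 alternatives.

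The class difference, the S2sh7 effect with WT or BRD minus that with ATPdead or GFP, was called for 14 of 30 members, 12 higher and 2 lower, against 23.9% of all genes (12% higher, 11.9% lower). INSIG1 led at 1.32 (SE 0.14, adjusted p = 0.00052), followed by SREBF1 at 1.20 (SE 0.09), APOC1 at 1.13 (SE 0.13), HMGCS1 at 1.00 (SE 0.17), MYLIP at 0.99 (SE 0.12) and EBP at 0.93 (SE 0.09). DHCR7, LSS, IDI1, FDPS, MVD and ACAT2 were also higher, by 0.32 to 0.66, while NPC1 (-0.41) and SC5D (-0.31) were lower. The LSS call held in all 15 alternatives, and those of DHCR7, IDI1 and FDPS in 9 of 15. The ACAT2 call held in 7 of 15, and those of MVD, NPC1 and SC5D in 6 each. The other NPC1 probe set tested gave -0.046. Both differences with ATPdead and GFP lay below both with WT and BRD for 20 of 30 members (66.7%) and 13 of 16 enzymes (81.2%), against 30.6% of all genes. The split lay mainly in the S2sh7 arrays: the spread of a member over the 4 cDNAs had a median of 0.403 with S2sh7 and 0.154 with shLuc, against 0.286 and 0.156 over all genes. The count of 14 was 7 without the shLuc array with WT or BRD, 8 without that with ATPdead or GFP and 9 without the S2sh7 array with ATPdead. Averaged over both shRNAs, no member differed between WT or BRD and ATPdead or GFP by limma, nor did any gene (0% called, and 5 of 30 members and 1714 of 14695 genes with an unadjusted p under 0.05). That additive fit counts the split by class as error, so it can miss a difference.

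Over all 4 A549 cDNAs together, in an additive fit, 8 members fell and none rose, against 21.1% of all genes called (9.06% lower): DHCR7 (-0.91, SE 0.15, adjusted p = 0.025), NR1H3 (-0.77), LSS (-0.64), IDI1 (-0.55), MSMO1 (-0.39), SREBF2 (-0.31), SQLE (-0.29) and MVK (-0.25). In 14 of 30 members (46.7%) and 10 of 16 enzymes (62.5%) all 4 pairs were lower with S2sh7, against 22.9% of all genes. With 1 array per group, the error of this fit is the departure from additivity, which includes the split by class. HMGCS1 (-0.82) and EBP (-0.66), lower in all 4 pairs, were not called, so a missing call here does not mean no change. No member was called without the pair with GFP or with ATPdead, and 1 was called without the pair with WT, so the counts of this fit rest on single pairs.

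The knockdown effect in A549 minus that in H1299, each averaged over its 4 cDNAs, was lower for 17 of 30 members and higher for none, against 31.5% of all genes called (18% higher, 13.4% lower). DHCR7 (-0.80, SE 0.10), APOE (-0.78, SE 0.09), NR1H3 (-0.74, SE 0.16), APOC1 (-0.72, SE 0.14), EBP (-0.68, SE 0.12) and LSS (-0.67, SE 0.09) differed most, with adjusted p between 1.7e-06 and 0.0012. HMGCS1, IDI1, SREBF1 and INSIG1 differed by -0.51 to -0.62, and MYLIP, MSMO1, SREBF2, PMVK, INSIG2, SQLE and TM7SF2 by -0.27 to -0.41. The A549 averages join classes that were unlike for some members. INSIG1 moved by 0.81 with WT or BRD and -0.51 with ATPdead or GFP, against 0.62 to 0.71 in H1299. In the same 2 classes SREBF1 moved by 0.0074 and -1.19, HMGCS1 by -0.33 and -1.32, and NR1H3 by -0.72 and -0.82. For NR1H3, LSS and EBP no H1299 knockdown comparison was called and the A549 values were lower with S2sh7, whereas for APOE and APOC1 the H1299 values were higher with S2sh7. HSD17B7, lower with S2sh7 in all 4 pairs of A549 and called lower in all 4 comparisons of H1299, was not called here (0.012, SE 0.10, adjusted p = 0.96). The fit takes the ratio of spread between the lines to be 1 value for all genes, and on simulated data its p-values came out somewhat too small. The count was 10 without the A549 pair with GFP or with ATPdead. Since the cDNAs are of SMARCA4 in A549 and of SMARCA2 in H1299, the line, the batch and the cDNA gene cannot be told apart in this comparison.

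Genes of fatty acid synthesis, also switched on by SREBP proteins, were followed as a second list of 13, 11 of them tested. In A549 1 rose and 4 fell with WT or BRD, against 12.1% of all genes higher and 9.28% lower. With ATPdead or GFP 10 of 11 fell, against 22.9% of all genes lower, among them FADS2, a fatty acid desaturase (-1.69, SE 0.12), ACACA, acetyl-CoA carboxylase (-0.92, SE 0.06), ACLY, ATP citrate lyase (-0.89, SE 0.06), and ME1, malic enzyme (-0.74, SE 0.08). The class difference was called for 8 of 11, all higher, against 23.9% of all genes. In H1299 with GFP 3 of 11 fell and 1 rose (36.4% called, against 29.7% of all genes), with ME1 at -0.36 (SE 0.05) and LPIN1, a phosphatidate phosphatase, at 0.19 (SE 0.04). Of 16 further genes of sterol handling, 15 were tested. In A549 1 rose and 6 fell with WT or BRD (46.7% called, against 21.3% of all genes). With ATPdead or GFP 1 rose and 7 fell, and the 53.3% called was near the 49.8% of all genes; those that fell included TMEM97, a sterol-responsive membrane protein (-1.71, SE 0.07), NPC2, the partner of NPC1 in lysosomes (-1.15, SE 0.07), RXRA, a partner receptor of LXR (-0.89, SE 0.07), and LPCAT3, a phospholipid acyltransferase (-0.68, SE 0.07). The class difference was called higher for 6 of these 15 (40%), against 12% of all genes. In H1299 with GFP 2 of the 15 rose and 4 fell (40% called, against 29.7% of all genes), led by LIPA, the lysosomal acid lipase (-0.15, SE 0.03). These lists do not hold every gene of their pathways.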

How the data were processed

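The authors deposited a single matrix of intensity values on a linear scale, 54675 probe sets by 32 arrays. RMA and limma are named in the submitters' processing notes; their versions and the build are not given in the sources used here. The tests had been planned for log2 values, so log2 of each deposited intensity was used, without a pseudocount. Probe sets with 1 symbol numbered 41097, several 1801 and none 11777; 54 of the first had no match in the RefSeq gene table (GRCh38.p14), used for names. The probe set with the highest mean stood for each gene, and genes over log2 5 in at least 3 arrays were tested (74.3%). Members, lists and tests were chosen with earlier results of these data known.

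Fits used limma 3.58.1 in R 4.3.3 with the data.table package, version 1.17.8: H1299 with 1 mean per group, A549 additively (cDNA and shRNA) and by 4 classes (WT or BRD against ATPdead or GFP, by shRNA), and both lines together with array weights for the difference between lines. Benjamini-Hochberg adjustment ran over all 14695 genes, called at adjusted p under 0.05. Each fit was tested on simulated data. Values of every array are given for INSIG1, DHCR7, APOE and members called with GFP in H1299, in the A549 additive fit or in a difference of effects, and ranges where a member was called only in A549; other pathway genes are given by counts, naming up to 4 per list by smallest adjusted p (SMARCA2 and SMARCA4 as checks). Replicate correlations were 0.9976 to 0.9988; the median residual SD was 0.0703 log2 in H1299 (16 degrees of freedom), 0.108 in the additive A549 fit (3) and 0.0766 in the class fit (4). Replicate numbers did not pair arrays. The alternatives tried were averaging a gene's probe sets, each probe set alone, no filter, log2 over 6, repeated quantile normalization, centring on the median, trend and robust eBayes, no array weights, a replicate block, terms for each cDNA in the class fit (chosen after seeing the data) and leaving out each array or pair. Figures used Python 3.11.15, matplotlib 3.10.9 and pandas 2.3.3.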

Additional observations from a re-analysis of the deposited data

Results flagged for a closer look

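A test of a difference between 2 knockdown effects was passed by 34 member results. In H1299, APOE differed between WT and GFP (-0.31) and between BRD and GFP (-0.45), and SREBF1 between WT and GFP (0.20).

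In A549 the effect with WT or BRD minus that with ATPdead or GFP passed for 14 members. It was positive for INSIG1 (1.32), SREBF1 (1.20), APOC1 (1.13), HMGCS1 (1.00), MYLIP (0.99) and EBP (0.93). It was also positive for DHCR7 (0.66), LSS (0.59), IDI1 (0.42), FDPS (0.36), MVD (0.32) and ACAT2 (0.32). It was negative for NPC1 (-0.41) and SC5D (-0.31). The calls of MVD, NPC1 and SC5D held in 6 of 15 alternatives and that of ACAT2 in 7.

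The effect in A549 minus that in H1299 passed for 17 members, all negative. These were DHCR7 (-0.80), APOE (-0.78), NR1H3 (-0.74), APOC1 (-0.72), EBP (-0.68), LSS (-0.67), HMGCS1 (-0.62), IDI1 (-0.56), SREBF1 (-0.54), INSIG1 (-0.51), MYLIP (-0.41), MSMO1 (-0.37), SREBF2 (-0.37), PMVK (-0.32), INSIG2 (-0.30), SQLE (-0.28) and TM7SF2 (-0.27).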

How the results depend on the processing

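Most called values kept direction and call. With the mean of all probe sets 132 of 178 single-member results did, 33 lost the call, 9 gained it and 4 changed sign: in H1299 IDI1 with WT (0.090, adjusted p = 0.046) and with ATPdead (0.10, adjusted p = 0.021), and SREBF1 with WT (-0.0017) and with BRD (0.022). In that setting 1 member differed between ATPdead and WT under S2sh7, and 1 between BRD and GFP under shLuc (5 with trend and robust eBayes). No sign changed in the other settings. The replicate block kept 85 of 86 results, and LSS between WT and GFP under shLuc (-0.12) lost its call; counts with the block were 13 with GFP, 13 with WT, 12 with BRD and 13 with ATPdead. The replicate numbers do not pair arrays: same-number deviations correlated at -0.285 to 0.281 (median -0.00735), and 9 of 24 arrays correlated best with their own number. Without 1 array, called members numbered 12 to 14 with GFP, 11 to 14 with WT, 10 to 11 with BRD and 9 to 11 with ATPdead in H1299, 2 for WT minus GFP, 1 for BRD minus GFP, 0 for ATPdead minus GFP, 2 to 3 for ATPdead and 0 for BRD against WT under S2sh7, and 5 for WT, 1 to 2 for BRD and 0 for ATPdead against GFP under shLuc. In A549 they numbered 0 to 6 in the additive fit, 0 for WT or BRD against ATPdead or GFP over both shRNAs, 3 to 8 with WT or BRD, 19 to 24 with ATPdead or GFP and 7 to 14 for the class difference, and 10 to 18 for the line difference. With terms for each cDNA the class counts were 7, 24 and 11. The causes were not tested. Members near or below log2 5 (ABCG1, NPC1L1) can show little.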
